A study of Rattus norvegicus with 12 samples.

Results

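The response of galinex-treated oligodendrocyte precursor cells (OPCs) to inflammatory cytokines was measured by comparing the 3 libraries labelled CTK2+GAL with the 3 labelled GAL. These are 6 of the 12 RNA-seq libraries of the series, chosen by their labels alone, and galinex is present on both sides, so the cytokines are the treatment that differs. Primary OPCs came from the cortex of wild-type Sprague-Dawley rat pups of both sexes, at postnatal day 0 to 2, and were shaken off mixed glial cultures before being placed in a medium that lets them differentiate. GAL received 10 nM galinex, an agonist of the receptor GPR17. CTK2+GAL received a mix of 3 cytokines (2 ng/mL of each of TNF-α, IFN-γ and IL-1β) and then, 6 h later, the same dose of galinex. RNA was taken 24 h after galinex. The other 6 libraries, CTL (neither agent) and CTK-2 (the same cytokines with vehicle, DMSO), hold the same contrast without galinex and share no library with the comparison described here, which allows the effect sizes to be set side by side. The labels do not say that replicates are separate cultures, so the p-values measure the spread between these samples, which may be technical.

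As background, IFN-γ signals through JAK kinases to STAT transcription factors and induces the transcription factor IRF1, which then acts on genes with interferon-response elements in their promoters. TNF-α and IL-1β act through NF-κB, which induces chemokines and adhesion molecules together with its own inhibitors. OPCs that mature make large amounts of cholesterol, long-chain fatty acids and myelin proteins, and the G protein-coupled receptor GPR17 marks a step of that maturation.

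Stretches of 5 genes upstream of transcription starts are shown because they hold the letters through which these factors are known to act, in genes that carry the response described below. Each is 80 bases of the RefSeq promoter window of GRCr8, 5′ to 3′ on the gene's strand. Capitals mark matches on either strand to the STAT motif GAS (TTCNNNGAA), to the interferon-response core ISRE (GAAA, any 2 bases, GAAA) or to the NF-κB motif.
Irf1: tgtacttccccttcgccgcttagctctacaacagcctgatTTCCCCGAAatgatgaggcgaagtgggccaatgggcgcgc
Gbp5: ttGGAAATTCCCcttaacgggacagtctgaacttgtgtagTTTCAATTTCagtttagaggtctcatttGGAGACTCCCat
B2m: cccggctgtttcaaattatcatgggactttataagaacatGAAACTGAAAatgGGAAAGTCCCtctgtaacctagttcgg
Cxcl10: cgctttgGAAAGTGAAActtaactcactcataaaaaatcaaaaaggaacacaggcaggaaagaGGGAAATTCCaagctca
Nfkbia: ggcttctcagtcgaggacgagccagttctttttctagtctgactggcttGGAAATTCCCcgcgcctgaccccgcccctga
The stretch of Irf1 (chr10:38417753-38417832, plus strand) holds a GAS match that begins 142 bases before the start. That of Gbp5 (chr2:233910903-233910982, plus strand) holds an ISRE match between a pair of NF-κB matches, and those of B2m (chr3:129549140-129549219, plus strand) and Cxcl10 (chr14:15988816-15988895, plus strand) hold an ISRE match followed by an NF-κB match. In Nfkbia (chr6:78597073-78597152, minus strand) only the NF-κB motif matched. The genes were chosen with their values known, and a match describes letters, not a bound site.

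Libraries differed in depth, and 2 GAL libraries stood apart. GAL 1 held 2600797 counted read pairs, GAL 2 held 6064182 and GAL 3 held 5908813. The CTK2+GAL libraries held 5080780, 5562951 and 8978185. In GAL 1, the shallowest, 3 read pairs correspond to 1.16 CPM (read pairs scaled to a common library size with the trimmed mean of M values, TMM), against 0.332 to 0.583 CPM in the other 5. GAL 3 had normal depth but raised levels of interferon-response genes, which are given for each library below.

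With thresholds of 0.59 on the absolute log2 fold change (log2FC) and 0.05 on the adjusted p (quasi-likelihood test of edgeR, Benjamini-Hochberg adjustment over 13348 genes), 2324 genes (17.4%) were differentially expressed genes (DEGs) between CTK2+GAL and GAL. Of these, 1558 (11.7%) were higher and 766 (5.74%) lower with cytokines. Increases were larger than decreases. At least 2-fold changes were found in 1001 of the increased and 269 of the decreased genes, at least 8-fold changes in 283 and 5, and at least 32-fold changes in 108 and 0. Of the increased DEGs, 35 had no count in GAL, so the sizes of their changes are fitted values without counts on that side. Of the decreased DEGs, 0 had no count in CTK2+GAL. The median log2FC of all genes tested was 0.0062. No CTK2+GAL library overlapped a GAL library in 2278 of the 2324 DEGs, and in 6610 (49.5%) of all genes tested, 25.5% with CTK2+GAL above and 24.0% with it below GAL. The corresponding shares in CTK-2 versus CTL were 49.1%, 25.2% and 23.8%. Without GAL 1 the count of DEGs was 2260, without GAL 3 it was 2412, and without both it was 2319.

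Symbols could be assigned only to genes that the study had listed as changed in CTK-2 versus CTL. Of 1777 such genes, 1521 were DEGs here, all in the direction they had in CTK-2 versus CTL. The direction in the libraries without galinex was fixed by that choice, whereas the values of CTK2+GAL and GAL come from other libraries. Genes that the cytokines did not move carry no symbol, so a list below describes its changed members. Another 803 DEGs had no symbol.

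Of 13 members of the receptor and JAK-STAT list that had a symbol (of 22 listed), 13 were higher and 0 lower, with a median log2FC of 2.05. Among all genes tested 11.7% were higher, but the fitting comparison is with the genes that carry a symbol and were higher in CTK-2 than CTL, of which 1045 of 1189 (87.9%) were higher here, with a median log2FC of 1.12. The same share applies to every list of increased genes below, so their counts are near what the choice of genes gives. Ifngr2, a chain of the IFN-γ receptor, was at 19.0, 18.8 and 16.7 CPM in GAL 1, 2 and 3 and at 34.8, 34.6 and 42.1 CPM in CTK2+GAL 1, 2 and 3. The kinase genes Jak1 and Jak2 rose by log2FC of 0.64 (standard error, SE, 0.056) and 0.87 (SE 0.083). Stat3, a transcription factor downstream of them, had 140, 113 and 177 CPM in GAL and 602, 604 and 582 CPM in CTK2+GAL. Its libraries did not overlap, and its level was 4.15-fold higher (adjusted p = 3.8e-09). Socs1, a feedback inhibitor of the JAK kinases, rose from 2.45 ± 1.45 to 56.9 ± 6.72 CPM (SD, n = 3), a log2FC of 4.43 (SE 0.19).

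Irf1, the transcription factor with the GAS match shown above, had 4.66 CPM in GAL 1, 3.01 in GAL 2 and 65.3 in GAL 3. In CTK2+GAL it had 600, 621 and 615 CPM. The cytokine-treated libraries were thus close to one another, and the GAL ones were not. The fitted log2FC was 4.51 (SE 0.77), and it was 7.43 without GAL 3 and 4.17 without GAL 1. Against single libraries, the CTK2+GAL mean was 131-fold above GAL 1, 203-fold above GAL 2 and 9.37-fold above GAL 3.

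All 30 interferon-induced genes with a symbol, of 38 listed, were higher in CTK2+GAL, with log2FC from 3.01 (Mx2) to 7.97 (Ifit2) and a median of 5.31, or 5.06 when Ifit3, which had no count in GAL, is set at its lower bound. These genes encode GTPases, RNA sensors and other proteins that restrict viruses and intracellular microbes. Gbp5, a guanylate-binding protein, had 0, 0.335 and 5.33 CPM in GAL and 544, 569 and 560 CPM in CTK2+GAL. Mx1, an antiviral GTPase, had 1.16, 0.335 and 4.12 CPM in GAL against 266, 295 and 273. Both were far apart between the groups in every library. For Ifit2, whose GAL libraries held 3 read pairs in total, the ratio of counts was 276, with a 95% counting interval from 94.2 to 1340.

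Among the 10 largest increases with a symbol and with counts in both groups, 4 were GTPases or relatives of them: Gbp5, Gbp4, Mx1 and LOC685067. Gbp5 (mRatBN7.2, chromosome 2, from 231237748 to 231257061), LOC685067 (from 231275640 to 231297278) and Gbp4 (from 231305244 to 231318879) lie next to each other. LOC685067, annotated as similar to a guanylate-binding protein, had 0, 0.167 and 13.1 CPM in GAL and 712, 727 and 722 CPM in CTK2+GAL. Near-identical copies in this cluster can share reads, and read pairs that map to several places were not counted, so the split of counts among them is uncertain. The remaining names were Cxcl10, Cxcl9, Ifit2, the MHC class II genes RT1-Db1 and RT1-Da, and Zbp1, a sensor of Z-form nucleic acids. All of these remaining genes, and Gbp4, had GAL counts in GAL 3 alone. They met the condition of counts in both groups, and took their rank, through that raised library. Without GAL 3 the fitted log2FC was 12.3 instead of 7.09 for LOC685067, 11.1 instead of 7.92 for Gbp5 and 8.84 instead of 7.09 for Mx1.

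Genes of antigen presentation with a symbol rose in both MHC classes. All 11 MHC class I and peptide-loading genes with a symbol, of 23 listed, were higher, with a median log2FC of 3.57. B2m, the light chain of class I molecules, had the highest CPM of them. It had 22.9 CPM in GAL 1, 32.2 in GAL 2 and 823 in GAL 3, against 3047, 3429 and 3570 CPM in CTK2+GAL. GAL 3 lay between the other GAL libraries and the cytokine-treated ones. The log2FC of B2m was 3.497 (SE 1.14, adjusted p = 0.021). The call was lost without GAL 1 (log2FC 2.97, adjusted p = 0.065) and without GAL 2 (2.96, adjusted p = 0.068). Without GAL 3, B2m stayed a DEG and the value was 6.88 (adjusted p = 0.00013). Tap1, a subunit of the transporter that loads peptides, had 5.82, 6.20 and 182 CPM in GAL and 804, 807 and 841 CPM in CTK2+GAL, and it remained a DEG without any single GAL library.

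The MHC class II genes with a symbol had few or no counts in GAL. All 6 with a symbol, of 11 listed, were higher, and the one with the highest CPM in CTK2+GAL, Cd74, the invariant chain, had 0, 0 and 2.92 CPM in GAL against 73.3, 94.1 and 87.9 in CTK2+GAL. Ciita, the activator that class II promoters depend on, had 0, 0 and 0.516 CPM against 27.2, 28.8 and 25.4. RT1-Da had 0, 0 and 0.688 CPM against 42.4, 42.1 and 44.5. In these genes GAL 1 and GAL 2 held no read pair at all, and the few counts of the group came from GAL 3. The fitted median log2FC of the list was 6.85. Without GAL 3 the remaining GAL libraries held no count of the 6 genes, and the median of their lower bounds was 6.60.

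In the TNF, IL-1 and NF-κB list, GAL 3 was the highest GAL library in 6 of 17 genes. All 17 members with a symbol, of 30 listed, were higher in CTK2+GAL (median log2FC 2.43). Nfkbia, which encodes the inhibitor IκBα and carries the NF-κB match shown above, had 14.4, 18.8 and 15.6 CPM in GAL and 85.1, 92.3 and 91.3 CPM in CTK2+GAL. The log2FC was 2.43 (SE 0.096) and stayed between 2.37 and 2.56 with any GAL library left out. Tnfaip3, the deubiquitinase A20 that ends NF-κB signalling, rose from 2.84 ± 1.32 to 53.1 ± 1.45 CPM (SD, n = 3). Vcam1, an adhesion molecule, rose from 4.72 ± 0.743 to 52.8 ± 1.34 CPM (SD, n = 3). Bcl3, a nuclear partner of NF-κB, had no count in GAL and 31.1 ± 1.32 CPM in CTK2+GAL, which is at least 150-fold higher when GAL is set at 3 read pairs over the group. The call of Nfkbiz, which encodes another member of the IκB family, was lost without GAL 2 (adjusted p = 0.052).

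Chemokine genes rose, some of them from no count at all. All 9 with a symbol, of 16 listed, were higher, and 4 of them had no count in any GAL library. Setting those 4 at their lower bounds, the median log2FC was 6.03 (9.24 as fitted). Cxcl10, a ligand of the receptor CXCR3, had 0, 0 and 0.516 CPM in GAL and 168, 180.4 and 180.2 CPM in CTK2+GAL, and the ratio of counts was 848 (95% counting interval 290.0 to 4114). Ccl2, which attracts monocytes, was at least 70.6-fold higher, and Ccl5, which attracts T cells, at least 88.5-fold higher. Their CTK2+GAL libraries held 10.3, 16.5 and 16.2 CPM of Ccl2 and 10.5, 18.1 and 23.3 CPM of Ccl5. Cx3cl1, a membrane-bound chemokine already present in GAL, had 8.15, 7.03 and 12.9 CPM against 62.6, 63.0 and 63.1.

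Of the complement and acute-phase list, 6 of 6 members with a symbol (15 listed) were higher (median log2FC 5.24, and 7.09 without GAL 3). C2, a component of the classical pathway, had 1.16, 1.17 and 17.7 CPM in GAL and 338, 318 and 345 in CTK2+GAL. Serping1, the inhibitor of C1, had 0, 0.167 and 1.72 CPM against 74.3, 84.3 and 79.7. Cp, the copper-carrying ceruloplasmin, changed least, from 17.6 ± 2.28 to 52.8 ± 2.88 CPM (SD, n = 3).

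**Figure D1:**
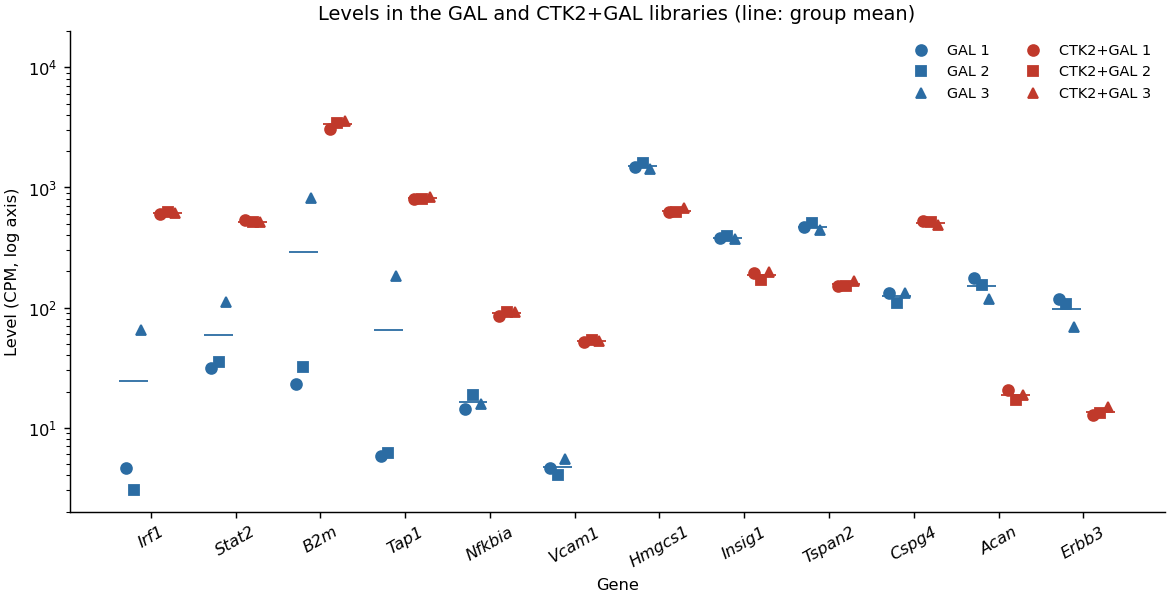
Levels of 12 genes in CPM on a log axis, 1 point per library, with blue for GAL, red for CTK2+GAL, a symbol for each replicate number and a line at the group mean. For Irf1, Stat2, B2m and Tap1 the GAL 3 triangle sits between the other GAL libraries and the CTK2+GAL libraries, whereas for Nfkbia, Vcam1, Hmgcs1, Insig1, Tspan2 and Cspg4 the 3 GAL libraries sit together.

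Genes of lipid synthesis with a symbol moved the other way. Of 18 cholesterol synthesis genes with a symbol, among 20 listed, 18 were lower and 0 higher, with log2FC from -1.57 (Tm7sf2) to -0.71 (Mvk) and a median of -0.94. Among all genes tested 5.74% were lower, and among the 588 genes with a symbol that were lower in CTK-2 than CTL, 476 (81.0%) were lower here, with a median log2FC of -0.84. Hmgcs1, which makes HMG-CoA at the entry to the pathway, had the highest CPM of the list. It had 1489, 1601 and 1429 CPM in GAL and 623, 631 and 672 CPM in CTK2+GAL. The groups did not overlap, and the log2FC was -1.23 (SE 0.064, adjusted p = 3.7e-11). Cyp51, a demethylase of lanosterol, had 552, 569 and 523 CPM in GAL and a mean of 252 ± 2.37 CPM (SD, n = 3) in CTK2+GAL. The summed level of the 18 genes was 6830, 7100 and 6617 CPM in GAL 1, 2 and 3 and 3380, 3369 and 3578 CPM in CTK2+GAL, so all GAL libraries, the shallow and the raised one included, stood at about the same height.

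Of 5 regulators of sterol supply with a symbol, among 12 listed, 2 were higher and 3 lower. Insig1, which holds back sterol-responsive transcription and is itself induced when that transcription runs, fell from 382 ± 12.4 to 187 ± 15.0 CPM (SD, n = 3). Abcg1, which exports cholesterol, and Nr1h2, the liver X receptor that induces exporters, were higher, with log2FC of 1.45 (SE 0.15) and 0.96 (SE 0.087). Stard4, a sterol carrier, was lower (log2FC -0.98).

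In the fatty acid list, 10 of 11 members with a symbol (17 listed) were lower, 0 were higher, and the median log2FC was -0.81, which is close to the 81.0% and -0.84 of genes chosen in the same way. Scd2, a stearoyl-CoA desaturase, had 5894, 5795 and 4982 CPM in GAL and 2841, 2667 and 2730 CPM in CTK2+GAL. Per kilobase of exon it was also the most abundant in GAL of the genes quoted here, at 1128 CPM per kilobase against 410 for Hmgcs1. In CTK2+GAL, B2m was higher, at 1716 CPM per kilobase against 558 for Scd2. Scd, its paralogue, had 177, 171 and 145 CPM against 51.9, 58.8 and 65.3. Acly, which supplies acetyl-CoA to both pathways, had a log2FC of -0.81 (SE 0.063). Elovl7, an elongase, missed the threshold with a log2FC of -0.56 (SE 0.22, adjusted p = 0.056).

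All 9 myelin genes with a symbol, of 26 listed, were lower, with a median log2FC of -1.003. The groups did not overlap in any of the 9. The same was true of 2278 of all 2324 DEGs, and 24.0% of all genes tested lay below GAL without overlap. The share of 81.0% given above for genes with a symbol that were lower in CTK-2 than CTL applies here too. Tspan2, a tetraspanin of the myelin sheath, showed the largest decrease of the list, with 469, 505 and 444 CPM in GAL and 153, 152 and 166 CPM in CTK2+GAL (log2FC -1.59, SE 0.070). Ugt8 and Fa2h, which make the galactolipids of myelin and the hydroxylated fatty acids in them, had log2FC of -1.14 and -1.25. In bulk RNA, fewer maturing cells and less RNA of these genes per cell cannot be told apart.

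Genes that mark or steer OPCs went both ways. Of 9 with a symbol, among 20 listed, 4 were higher, 4 lower and 1 was not called. Of all 1777 genes with a symbol, 1521 were called here, so such a count is near what the choice of genes gives. The same share applies to the regulators of sterol supply and to the cell-cycle-arrest list. Cspg4, which encodes the proteoglycan NG2, had 133, 108 and 132 CPM in GAL and 529, 517 and 484 CPM in CTK2+GAL, a log2FC of 2.04 (SE 0.095). Pdgfra, the receptor of the OPC mitogen PDGF, rose by a log2FC of 0.77. Egfr had 0.388, 1.17 and 1.03 CPM in GAL and a mean of 9.38 ± 1.46 CPM (SD, n = 3) in CTK2+GAL. Against this, Acan, the proteoglycan aggrecan, had 177, 155 and 119 CPM in GAL and 20.6, 16.9 and 18.7 in CTK2+GAL, a log2FC of -2.98 (SE 0.15). Erbb3, a neuregulin receptor, had 118, 107 and 68.4 CPM against 12.6, 13.1 and 14.8. In both of these genes GAL 3 was the lowest GAL library and thus nearest to the cytokine-treated ones, without overlap.

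Acan, Erbb3 and Mgll were among the 10 largest decreases with a symbol and with counts in both groups. Mgll, a lipase that splits monoacylglycerols such as the endocannabinoid 2-arachidonoylglycerol, had 102, 104 and 70.0 CPM in GAL and 14.8, 13.7 and 13.4 CPM in CTK2+GAL. Slc27a6, a fatty acid transport protein, showed the largest decrease with all libraries, from 4.90 ± 2.20 to 0.403 ± 0.300 CPM (SD, n = 3). Its log2FC was -3.61 (SE 0.53), against -3.51 (SE 0.51) for Papss2. Without GAL 1 the order turned, at -3.44 for Slc27a6 and -3.64 for Papss2. Prex2, an exchange factor for Rac, fell from 19.2 ± 4.13 to 1.96 ± 0.945 CPM. The others were Papss2, Atp10b, Gask1b, Frzb and LOC365985, whose GAL means were between 5.08 and 19.9 CPM. None of the decreases reached the size of the 10 largest increases.

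Of the cell-cycle-arrest list, 9 of 10 members with a symbol (15 listed) were higher and 1, Gadd45a, was lower. Cdkn1a, which encodes the kinase inhibitor p21, had 23.7, 26.5 and 25.1 CPM in GAL against 45.1, 52.2 and 60.7. Ccnd1, a cyclin that drives entry into the cell cycle and does not act as the list's name says, was 2.43-fold higher. Of 2 tricarboxylic acid cycle genes with a symbol, among 15 listed, Fh was lower and Idh3a was not called (log2FC -0.49).

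The mitosis list gave the most unlike counts in the 2 comparisons, although the difference passed the thresholds in none of its genes. Of 6 with a symbol, among 20 listed, 0 were called in CTK2+GAL versus GAL and 6 were lower in CTK-2 versus CTL, the comparison on which their symbols were chosen. The median log2FC was -0.49 here and -0.86 there. Kif20b, a kinesin of cell division, had 4.66, 4.69 and 7.91 CPM in GAL and 6.42, 7.10 and 5.54 in CTK2+GAL, and the groups overlapped. Its difference between the responses was 0.86 on the log2 scale (SE 0.33, unadjusted p = 0.017). Birc5, also known as survivin, and Ccnb1, cyclin B1, missed the threshold narrowly with log2FC of -0.61 and -0.58 (adjusted p = 0.055 and 0.058). Both were called in a fit with the replicate number as a block, although the numbers did not pair GAL with CTK2+GAL. All 6 had at most 15.5 CPM in any GAL or CTK2+GAL library. Without GAL 3, the library with the lowest summed level of this list in GAL (49.0 CPM against 65.2 and 60.5), Cdk1 (adjusted p = 0.021) and Birc5 (adjusted p = 0.014) passed the thresholds.

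**Figure D2:**
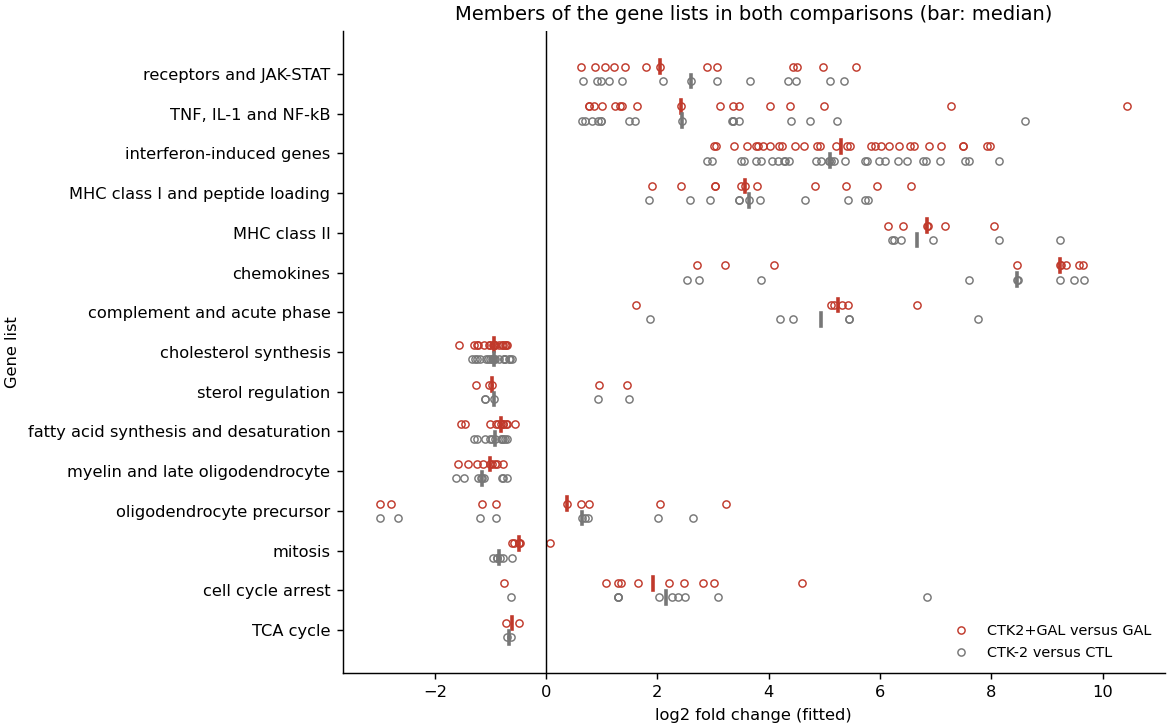
Fitted log2FC of the list members with a symbol, 1 circle per gene, in CTK2+GAL versus GAL (red) and CTK-2 versus CTL (grey), with a bar at each list's median. The lists' medians fall on the same side of 0 in both comparisons, and the median of the mitosis list lies nearer to 0 with galinex on both sides (-0.49) than without (-0.86).

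The response with galinex could be set against the response without it because no library is shared. CTK-2 versus CTL had 2311 DEGs (17.3% of genes tested), 11.5% being higher and 5.79% lower with cytokines. Of these, 2290 had the same sign in CTK2+GAL versus GAL, 1849 (80.01%) were also DEGs there with the same direction, and 0 were DEGs in the opposite direction. These 1849 genes are 79.6% of the 2324 DEGs of CTK2+GAL versus GAL. Across the 2311 genes, Pearson's r between the 2 log2FC was 0.966 and the slope of the line through them was 0.978. Over all 13348 genes tested, 83.7% had the same sign and r was 0.936. These values are descriptions across genes, which are not independent replicates. For the 1538 increased genes the median log2FC was 1.24 without and 1.18 with galinex, and for the 773 decreased genes it was -0.87 and -0.81. Since the genes were chosen as DEGs in the first comparison, a somewhat smaller median in the second is built into the choice, and the reverse choice gave 1.14 and 1.25 for the 1558 genes increased in CTK2+GAL. Control libraries were not fully unrelated: deviations from the group mean in CTL 3 and GAL 3 correlated across genes at 0.605. Same-number values were 0.263 for replicates 1 and 0.268 for replicates 2. Unlike numbers gave similar values there, 0.255 for CTL 1 with GAL 2 and 0.155 for CTL 2 with GAL 1. Pairs of a replicate 3 with another number lay between -0.447 and -0.314. CTL 3 had the same raised interferon-response genes as GAL 3.

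How often a DEG was found again followed its level. Among DEGs of CTK-2 versus CTL with a mean count of 500 or more, 93.6% were DEGs of CTK2+GAL versus GAL. The share was 85.0% from 100 to 500, 75.3% from 20 to 100 and 67.2% from 5 to 20, where the median SE of the log2FC was 0.44 instead of 0.065. Of the 462 DEGs not found again, 441 had the same sign, 166 of those passed the adjusted p but not the fold threshold, and 0 of the 21 with the opposite sign passed the adjusted p. Called in the reverse way only were 475 genes, of which 454 had the same sign.

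**Figure D3:**
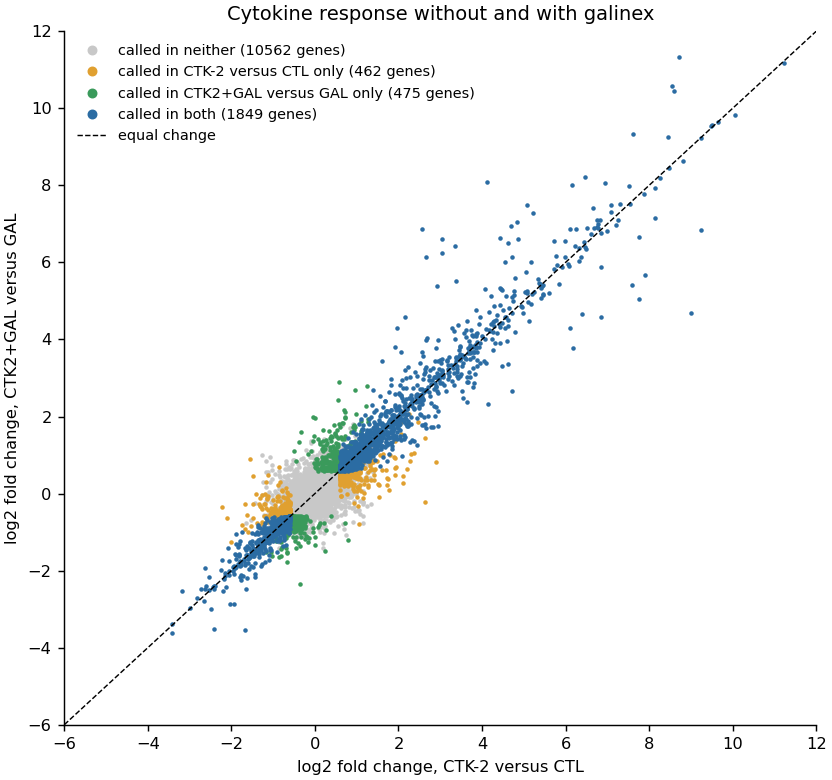
Each point is 1 of the 13348 genes tested, with its log2FC in CTK-2 versus CTL on the x axis and in CTK2+GAL versus GAL on the y axis, and colours show in which comparison it was called. The 1849 genes called in both follow the dashed line of equal change, and the genes called in only 1 comparison lie mostly near the fold threshold.

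A direct test of the difference between the 2 responses called 0 of 13348 genes (edgeR's quasi-likelihood test), with 376 genes at an unadjusted p under 0.05. DESeq2 also called 0, with 123 genes at an unadjusted p under 0.05. With no difference in any gene, a share of about 0.05 of the genes would fall under that limit. Both counts are below that share, so they are no sign of a difference. The SE of a difference was 0.17 in the median gene, so small differences were not detectable in most genes. For Hmgcs1 the 2 log2FC were -1.23 and -1.24 and their difference had a SE of 0.089. For Nfkbia they were 2.43 and 2.44 (SE of the difference 0.14), and for Cspg4 2.04 and 2.00 (0.13). For B2m, where GAL 3 and CTL 3 stood apart, the SE of the difference was 1.47. The smallest p belonged to a gene without a symbol, ENSRNOG00000019779, with 4.27, 3.85 and 4.64 CPM in GAL and 12.4, 13.1 and 10.1 in CTK2+GAL. It had 6.88, 6.56 and 7.30 CPM in CTL and 9.41, 9.09 and 9.26 in CTK-2. The log2FC was 1.46 with galinex and 0.42 without (unadjusted p = 0.0007 for the difference, which did not pass the adjustment).

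**Figure D4:**
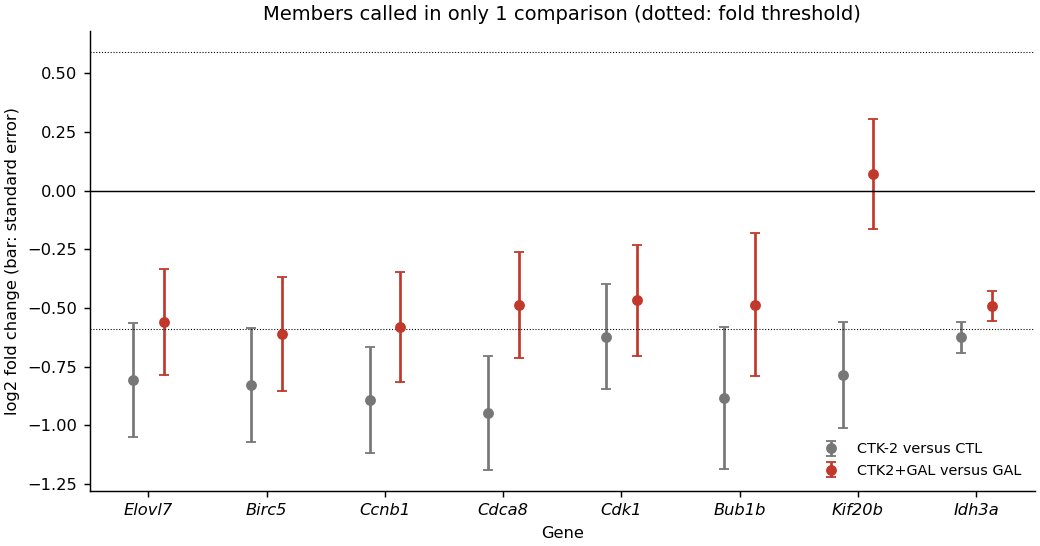
Log2FC with SE of 8 list members called in only 1 comparison, in CTK-2 versus CTL (grey) and CTK2+GAL versus GAL (red), with dotted lines at the fold threshold. All 8 were called in CTK-2 versus CTL, on which their symbols were chosen, and Kif20b has the widest gap relative to its errors.

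The GAL libraries were then taken one by one. Median differences between the CTK2+GAL mean and a single GAL library, on the scale of log2(CPM + 1), describe where the shallow library and the raised one matter. For the 30 interferon-induced genes the median difference was 5.69 from GAL 1, 5.82 from GAL 2 and 3.28 from GAL 3. For MHC class I genes it was 5.38, 5.41 and 2.16. In the NF-κB list it was 2.16, 2.16 and 1.91, and in the cholesterol list -0.96, -1.01 and -0.93. GAL 1, in spite of its depth, lay close to GAL 2 in most lists. Over all genes tested the medians were 0.022, 0.0089 and 0.0035.

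GAL 3 was the GAL library nearest to the CTK2+GAL mean in 29 of 30 interferon-induced genes, 11 of 11 MHC class I genes and 6 of 6 MHC class II genes. It was the nearest in 6 of 17 genes of the NF-κB list, as was GAL 1, and in 10 of 18 cholesterol genes (GAL 1 in 7 and GAL 2 in 1). Over all genes tested it was the nearest in 5612 of 13348. Summed over the interferon list, GAL 1, 2 and 3 had 67.5, 65.5 and 458 CPM and CTK2+GAL had 4753, 4966 and 4876 CPM. GAL 3 thus held 9.42% of the CTK2+GAL mean for this list, 23.6% for MHC class I and 2.48% for MHC class II. Chosen after their values were seen, B2m, Tap1 and Irf1 were 29.9-fold, 30.3-fold and 17.0-fold higher in GAL 3 than in the mean of GAL 1 and GAL 2. In CTL 3 they were 32.7-fold, 27.3-fold and 19.3-fold above the mean of CTL 1 and CTL 2. Without GAL 3, 11 of the 30 interferon-induced genes had no count in GAL, and the median log2FC of the list was 7.28 with those at their lower bounds (8.47 as fitted), against 5.06 (5.31 as fitted) with GAL 3. That of MHC class I was 6.88 instead of 3.57, whereas the cholesterol list had -0.97 instead of -0.94.

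**Figure D5:**
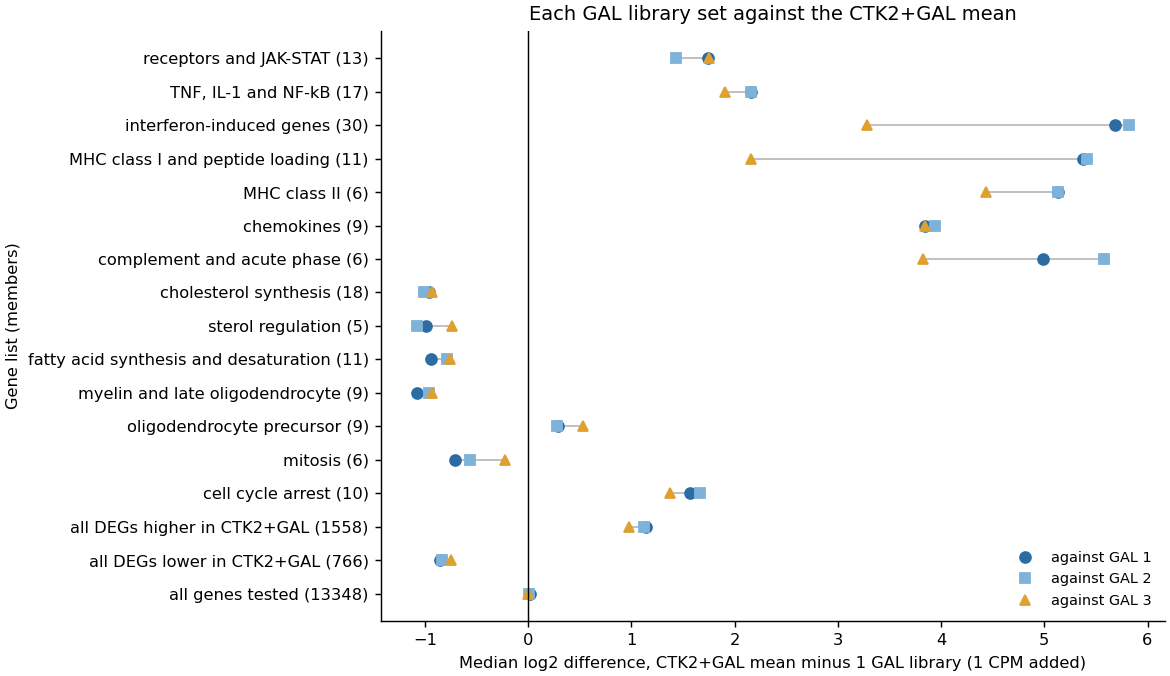
Median log2 difference between the CTK2+GAL mean and GAL 1, GAL 2 or GAL 3, with 1 CPM added, for each gene list and for all genes tested, with the number of genes in parentheses. The mark for GAL 3 lies nearer to 0 for the interferon-induced, MHC class I and complement lists, and the 3 marks lie together for the cholesterol and myelin lists.

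Markers of the cell types such cultures can hold were counted where they had a symbol. Of 8 oligodendrocyte-lineage markers 3 had one, and Cspg4 and Pdgfra, among these, were abundant in all 6 libraries. Of 13 microglial markers 4 had one, and 3 were higher in CTK2+GAL. These 4 belong to the study's list of changed genes. Of genes with a symbol that were higher in CTK-2 than CTL, 87.9% were higher here, against 11.7% of all genes tested. The count is thus no more than the choice of genes gives. P2ry12, the microglial marker with the highest CPM, had 1.16, 1.84 and 3.09 CPM in GAL and 10.3, 10.1 and 9.42 in CTK2+GAL. C1qc and Ptprc rose to means of 5.39 ± 0.855 and 2.27 ± 0.239 CPM (SD, n = 3). The summed level of the 4 was 3.10, 3.18 and 10.5 CPM in GAL 1, 2 and 3 and 19.6, 20.6 and 20.8 CPM in CTK2+GAL, so GAL 3 was raised here too. Csf1r, which was not called, had a log2FC of 0.61 (adjusted p = 0.40), and markers without a symbol were not analysed here. By the study's methods, flasks were shaken to remove microglia before OPCs were collected, and staining of a preparation for a microglial marker protein found no positive cells. The part of microglia in the interferon and MHC class II results was not tested. Sox9, a marker of astrocytes among other cells, had 15.5, 15.7 and 18.2 CPM in GAL and 58.9, 62.5 and 55.1 in CTK2+GAL, and Tubb3, Kdr and Col1a2, single markers of neurons, endothelial cells and fibroblasts, were also higher. Each of these types is represented by 1 gene with a symbol, which belongs to the study's own list of changed genes.

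The promoters of list members were searched for the same letters, in the window from 250 bases before to 50 after each start. Of 27457 RefSeq promoters of 300 bases, 3.77% held the ISRE core, 8.68% GAS, 7.60% the NF-κB motif and 1.13% a sterol-response motif (TCACNCCAC). The ISRE core was found in 18 of the 23 interferon-induced genes with a promoter in the table and in 6 of 10 MHC class I genes. It was also found in 3 of 14 genes of the NF-κB list, 2 of 11 receptor and JAK-STAT genes, 1 of 7 chemokines and 1 of 6 cell-cycle-arrest genes. The NF-κB motif was found in 8 of 14 genes of the NF-κB list, 3 of 7 chemokines and 4 of 11 receptor and JAK-STAT genes, and also in 2 of 5 MHC class II, 2 of 6 OPC, 2 of 6 cell-cycle-arrest and 3 of 11 fatty acid genes. GAS was found in 3 of 11 receptor and JAK-STAT genes, Irf1 among them, in 4 of 14 genes of the NF-κB list, 3 of 7 chemokines and 5 of 23 interferon-induced genes. No cholesterol gene of 13 held the sterol-response letters in this window. Some matches of different motifs can overlap, and these shares are descriptions of lists that were picked by function and by their change.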

How the data were processed

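The deposited files hold raw counts of read pairs per gene, 1 table per library. Per the file headers and the study's methods, the authors aligned reads with STAR (version not given in the sources used here) and counted exons of the Ensembl release 112 annotation of mRatBN7.2 with featureCounts 2.0.0, reversely stranded. Pairs that map to several places or overlap several genes were not counted.

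Tests covered the 13348 of 30562 genes whose mean over 12 libraries reached 5 counts. One edgeR 4.0.16 quasi-likelihood model (R 4.3.3) with TMM scaling was fitted to the 4 groups, and p-values were adjusted over all genes. The authors used DESeq2, which is an alternative here (version 1.42.0), as are other filters, scalings and leaving out libraries. The SE of a log2FC is its size over the root of the F statistic. Counting intervals are exact binomial intervals at 95% and cover counting error only. The floor for a group without counts is 3 read pairs.

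Symbols came from a numeric match of the mean and fold change in the study's list of DEGs to the counts: 1781 of 1786 entries matched 1 gene, 891 of 893 entries held out from the fit matched, 0 matched with the sign turned, and 99.9% of 1764 lay on the same chromosome in RefSeq (5.10% after shuffling). Members, lists and tests were chosen with earlier results of these data known.

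Named genes are the 10 largest increases and decreases with a symbol, counts in both groups and no overlap; in each list, at most 4 members (by adjusted p) and the most abundant one; the 5 smallest p-values of the difference, of which those without a symbol are mostly not printed; genes the study measured by quantitative PCR, of which 5 had a symbol; and list members called in 1 comparison. Other list members were named after their values were seen. Results for some genes are not reported here.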

Additional observations from a re-analysis of the deposited data

How the results depend on the processing

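Under the alternatives that kept both thresholds and all libraries, CTK2+GAL versus GAL gave between 2108 (DESeq2) and 2535 DEGs (no filter on low counts), and 0 of the 2324 DEGs were DEGs in the opposite direction in any of these or in a fit without 1 or 2 libraries. DESeq2 gave no p for 37 genes, B2m, Irf1 and Tap1 among them, because of outlying counts, so they are left out of the lost calls. With no fold threshold, the count was 5290 in CTK2+GAL versus GAL and 5213 in CTK-2 versus CTL. With each replicate left out in turn, CTK2+GAL versus GAL gave 2032 to 2412 DEGs, CTK-2 versus CTL 2117 to 2515, and the genes called in both 1681 to 1892. The difference between the responses, 0 genes as fitted, was 4 genes with no filter on low counts, which include ENSRNOG00000051865 and ENSRNOG00000068420, and 6 genes, ENSRNOG00000051865 among them, without CTL replicate 3 and GAL replicate 3 together (chosen after seeing the data, as was leaving out GAL 1 and GAL 3 together). Kif20b changed sign without GAL replicates 1 or 2 or CTK2+GAL replicate 2, with values from -0.12 to 0.42 over all single libraries left out and 0.07 with none. The replicate numbers did not pair GAL with CTK2+GAL (same-number correlations of 0.069, 0.00025 and 0.060). A fit with the replicate block gave 2321 DEGs in CTK2+GAL versus GAL and 0 genes for the difference, and it called Elovl7, Birc5 and Ccnb1. Depth limits genes under about 20 counts, and GAL 1 most.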
